A study of Rattus norvegicus with 8 samples.

Results

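Transcripts of stathmins, microtubule-associated proteins (MAPs) and neurite growth proteins were examined in the rat PC12 line Htt14A2.5. The members were every array probe set whose annotation names exactly 1 gene of a list of 10: Stmn2, Stmn3, Stmn4, Gap43, Map1a, Map1b, Map2, Mapt, Nrn1 and Dpysl2. This gave 18 probe sets for 8 of the 4737 genes that the annotation names alone on this array. No probe set carries Stmn2 or Stmn3 as its only symbol, so these 2 genes were not analysed here. PC12 derives from a tumour of the rat adrenal medulla. Both groups carry a stably integrated, inducible exon 1 fragment of mutant human huntingtin, which is truncated. The 4 +PA samples were treated with the inducer ponasterone for 48 h, and the 4 -PA samples were not induced. The sample titles set these groups, since the free-text description mentions induction for every sample. No line without the transgene is among the samples, so responses to ponasterone and to the huntingtin fragment cannot be told apart. Nothing in the labels states that the line is 1 clone or that replicates came from separate cultures, and the p-values below measure only the spread between these samples, which may be technical.

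Microtubules are polymers of tubulin that give neurites their shape and serve as tracks for transport. Stathmins bind free tubulin and favour disassembly of the polymer, and their neuronal relatives are anchored to membranes. Structural MAPs (Map1a, Map1b, Map2 and tau, encoded by Mapt) bind along the polymer and stabilise it, and Dpysl2 (CRMP2) carries tubulin to growing ends. Gap43 sits under the growth cone membrane, and Nrn1 (neuritin) is a membrane-anchored protein induced by neuronal activity that promotes neurite branching. PC12 cells are widely used in this setting because nerve growth factor makes them stop dividing and extend neurites.

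Induced cells had higher signals for Stmn4, Nrn1, Map2, Map1a and Gap43, by 1.53-fold to 3.95-fold. Stmn4 had the largest of these differences. Tau and Dpysl2 transcripts did not pass the test in either direction, and Map1b was at the level of the background controls. Of the 18 probe sets, 12 passed a filter on low signal (a mean over the 8 arrays of at least 36.0) and were tested with limma, which adjusts p over all 6129 probe sets tested. Of these 12, 5 rose, 0 fell and 7 were not called at an adjusted p of 0.05. Among all tested probe sets 7.06% were called in either direction and 4.10% were called higher. Among the 12, the same 5 probe sets were those whose +PA arrays all lay above all -PA arrays, which held for 6.48% of tested probe sets (13.6% counting either direction). The members were chosen with earlier results of these data known, so their count describes these genes and is no independent evidence. The median log2 difference was 0.53 over the 12 probe sets and -0.048 over all 6129.

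**Figure D1:**
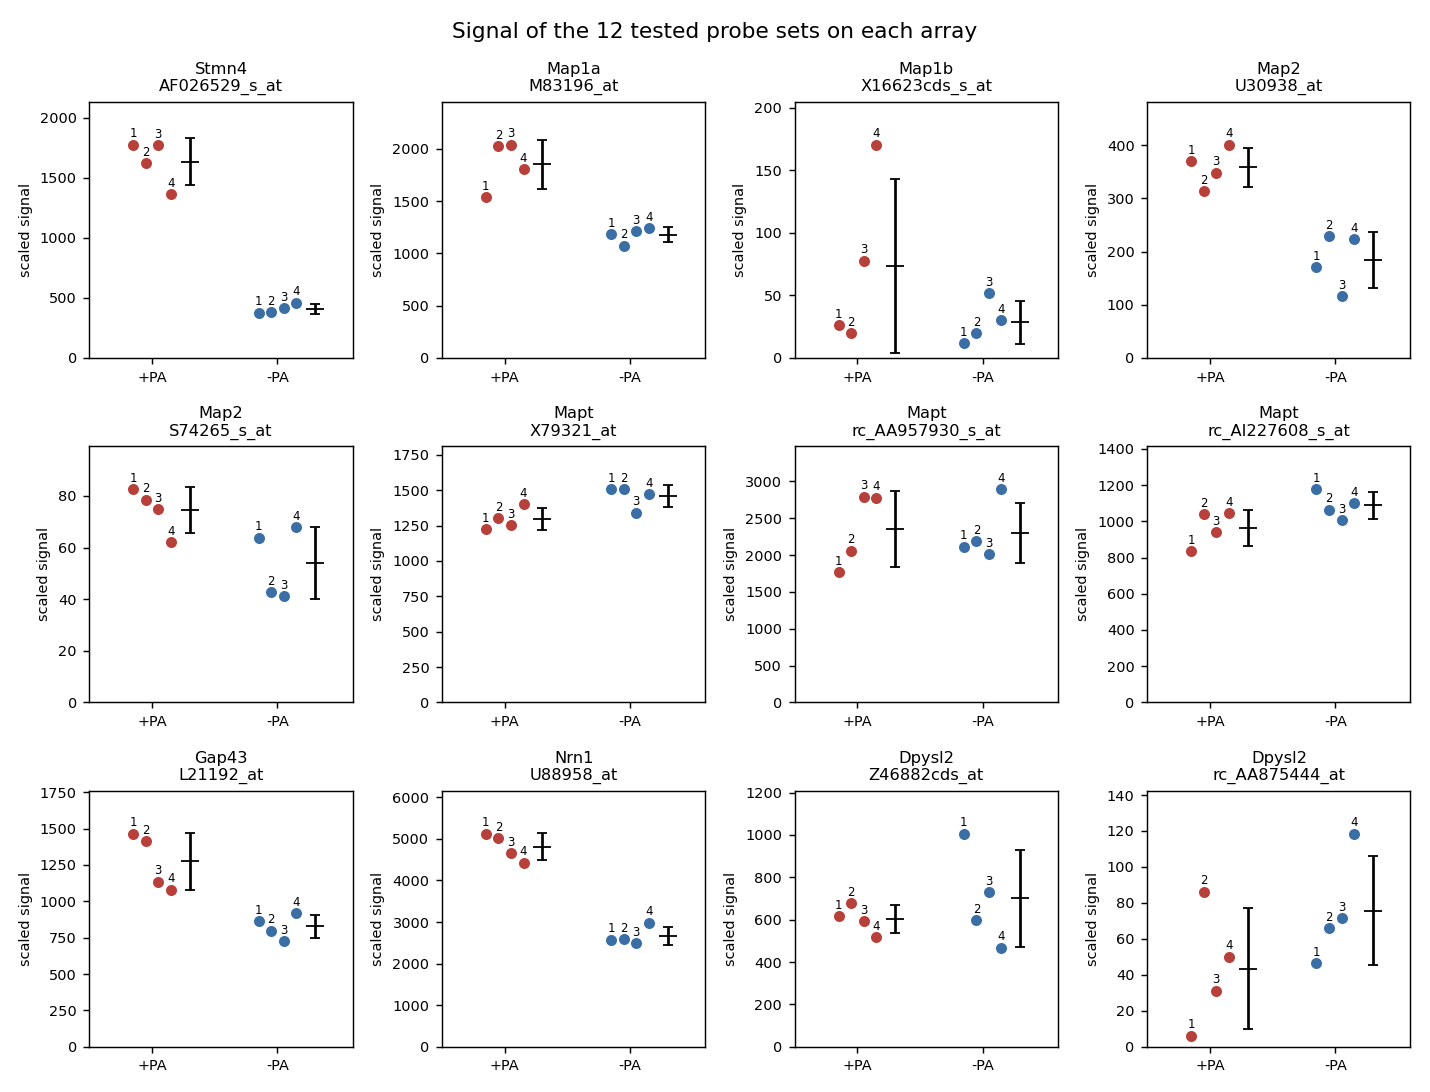
Scaled signal of each of the 12 tested probe sets (vertical axes, linear and starting at 0) on the 4 +PA arrays (red) and the 4 -PA arrays (blue). Small numbers give the replicate, and the black bars give the mean ± SD. The groups are separate for Stmn4, Map1a, Map2 (U30938_at), Gap43 and Nrn1 and overlap in the other panels.

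Some facts of the arrays bear on these values. The arrays had been scaled to a common trimmed mean (500.8 to 500.9), and their median signals ran from 97.5 to 134.9 in +PA and from 106.3 to 127 in -PA samples. The 95th percentile of 38 background control probe sets lay between 102 and 137 on +PA arrays and between 128 and 183 on -PA arrays. It serves here as a background level because the values used here carry no detection calls. Except on +PA replicates 2 and 3, it was above the array's own median signal (183 against 120.4 on -PA replicate 1). A transcript with a signal below it is therefore not shown to be absent. Log2 ratios of 3' to 5' control signal overlapped between the groups, at 0.39 to 0.56 (+PA) and 0.20 to 0.50 (-PA) for Gapdh and at 0.50 to 1.14 (+PA) and 0.87 to 1.37 (-PA) for hexokinase. For beta-actin it was -0.67 on +PA replicate 3, against 0.22 to 0.57 on the other +PA arrays and 0.076 to 0.57 in -PA samples. Chromaffin markers were present in part: Chgb, Scg2, Phox2a, Gata3, Ret and Pnmt lay above background on all 8 arrays and Slc18a1 on 7. Dbh, Ddc, Slc18a2 and Npy did so on 0 arrays and Th on 1. Over 12 such markers the summed signal was 17156 to 18758 in +PA and 17109 to 21371 in -PA samples. Most of this sum came from Chgb (mean 12195 in +PA and 10991 in -PA samples) and Phox2a (3552 and 5765). Of the 12 markers 3 were called: Ret (0.96) higher, Phox2a (-0.70) and Gata3 (-0.68) lower. The summed signals of markers of other cell types overlapped between the groups: 1553 to 1922 (+PA) and 1409 to 1785 (-PA) over 7 fibroblast genes, 1064 to 1159 and 883 to 1188 over 6 Schwann and glial genes, 216 to 531 and 215 to 376 over 6 leukocyte genes, and 84 to 185 and 123 to 251 over 5 adrenal cortex genes. Above background on all 8 arrays were 2 fibroblast genes (Col1a1 and Col3a1), 3 glial genes (Pmp22, Cnp and Mag) and 1 leukocyte gene (Cd4). No adrenal cortex gene was. At or under background on all 8 arrays were 4 fibroblast, 3 glial, 4 leukocyte and 4 adrenal cortex genes. Of these 24 genes only the myelin gene Pmp22 was called, with a log2 difference of 0.81 (limma adjusted p = 0.0161). Its part in the results was not tested.

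Stmn4 (also called RB3) is a neuronal stathmin and the only member of that family among the probe sets analysed for this set. Probe set AF026529_s_at read 1775, 1623, 1773 and 1364.5 on +PA arrays 1 to 4, against 377, 379.6, 412 and 460.5 on -PA arrays 1 to 4. Each +PA array was far above each -PA array, and every value was above background. The means were 1634 ± 193 in +PA and 407 ± 39.0 in -PA samples (SD, n = 4 each). The fitted log2 difference was 1.98 ± 0.12 (SE), a fold of 3.95 with a 95% confidence interval of 3.29 to 4.75 (limma adjusted p = 1.3e-06). Folds here come from log2 values to which a signal of 7 was added, which slightly understates them. It was the 18th largest rise of the 6129 probe sets and had the 9th lowest p. Leaving out any single array moved the difference only between 1.94 and 2.07. The suffix _s_at marks a probe set that can bind more than 1 transcript, so splice forms of Stmn4 were not told apart.

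Stmn1, the general stathmin of dividing cells, is outside the set and moved the other way. It read 1472, 1331, 1592 and 1256 on +PA arrays, against 1672, 2266, 2221 and 2698 on -PA arrays. All +PA values were below all -PA values, the narrowest gap being from +PA replicate 3 to -PA replicate 1. The log2 difference was -0.63 ± 0.14 (limma adjusted p = 0.0152). The call ended without -PA replicate 2 (adjusted p = 0.0514), without both replicates numbered 2 (0.125), with median centring (0.123) and with no intensity trend (0.0779), and it held in the other 12 settings.

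Among the structural MAPs, Map1a, which is prominent in mature neurons, was covered by 2 probe sets. M83196_at read 1538, 2025, 2041 and 1806 on +PA arrays, against 1182, 1073, 1212 and 1239.8 on -PA arrays. The groups did not overlap, and +PA replicate 1 was the lowest of its group. This gave a log2 difference of 0.64 ± 0.11, a fold of 1.56 with an interval of 1.32 to 1.85 (limma adjusted p = 0.0034). Without both replicates numbered 2, whose source label is worded differently, it was 0.56 (adjusted p = 0.0550). The second probe set, X66840cds_s_at, read 6.4 to 14.2 in +PA and 7.8 to 23.2 in -PA samples, below the filter, and was not tested.

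Map2 marks dendrites in neurons, and 5 probe sets carry its name. U30938_at read 369.8, 314, 349 and 402 on +PA arrays, against 170.4, 229, 117 and 223 on -PA arrays. All +PA values lay above all -PA values. Every +PA array exceeded its background level, while 2 of the 4 -PA arrays did so. Part of this contrast lies in the levels, which were 102 to 137 on +PA and 128 to 183 on -PA arrays. The signal on -PA replicate 1 (170.4) was under its level of 183 but above the level of every +PA array. With -PA signals near background, the size of the change is less certain than its direction. The log2 difference was 0.97 ± 0.21, a fold of 1.96 with an interval of 1.42 to 2.71 (limma adjusted p = 0.0152). The difference ranged from 0.77 (without -PA replicate 3, the lowest -PA array) to 1.09 without single arrays, and it passed in all 16 alternative settings. S74265_s_at, at 62.0 to 82.7 in +PA and 41.3 to 67.8 in -PA samples, was below background on every array, and its log2 difference of 0.44 was not called (adjusted p = 0.507, interval -0.22 to 1.1). With S74265_s_at at background, its difference cannot be set against that of U30938_at. The other 3, rc_AI228850_s_at, X17682_s_at and X53455cds_s_at, had mean signals of 38.95, 19.4 and 7.53 in +PA and 22.9, 8.65 and 7.93 in -PA samples and were not tested.

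Map1b, the MAP typical of growing axons, was near or below background. X16623cds_s_at read 26, 19.7, 77.8 and 170.5 on +PA arrays, against 11.9, 19.5, 51.9 and 30.4 on -PA arrays. A single array, +PA replicate 4, was above its background level. The log2 difference of 0.90 ± 0.63 was not called (limma adjusted p = 0.516), and without that array it was 0.38. U52950_at and U52950_g_at read 8.0 to 71.6 and 8.2 to 23.1 in +PA samples, against 10.5 to 16.4 and 3.1 to 7.7 in -PA samples. The U52950_g_at groups did not overlap, but both probe sets were below background throughout and were not tested.

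Promoter windows were available in the RefSeq table (build GRCr8) for 4 of the 10 genes, Stmn3, Map1a, Map1b and Map2; those of the 3 MAPs are shown because Map1a and Map2 rose and Map1b was at background. Each is the 250 bases before an annotated transcript start, 5' to 3' on the gene's strand. Map1a is chr3:128722445-128722694 (plus strand), Map1b is chr2:32644472-32644721 (minus strand) and Map2 is chr9:75346440-75346689 (plus strand). The starts used for Map1a and Map2 lie 5788 and 173652 bases inside the annotated gene, so other promoters of these genes are not shown. Capitals mark matches, on either strand, to 6 motifs: the GC box GGGCGG, the TATA box TATAAA, the cAMP response element TGACGTCA, the AP-1 site TGANTCA and the Egr sites GCGTGGGCG and GCGGGGGCG.
Map1a: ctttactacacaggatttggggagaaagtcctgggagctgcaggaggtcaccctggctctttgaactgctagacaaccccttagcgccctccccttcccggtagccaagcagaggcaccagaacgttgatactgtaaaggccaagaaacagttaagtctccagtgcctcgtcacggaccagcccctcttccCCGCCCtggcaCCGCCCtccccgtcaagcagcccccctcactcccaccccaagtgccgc
Map1b: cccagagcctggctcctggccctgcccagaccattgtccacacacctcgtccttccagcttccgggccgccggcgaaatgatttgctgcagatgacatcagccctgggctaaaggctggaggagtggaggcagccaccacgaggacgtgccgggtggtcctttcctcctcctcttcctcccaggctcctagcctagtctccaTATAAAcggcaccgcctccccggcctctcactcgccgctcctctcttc
Map2: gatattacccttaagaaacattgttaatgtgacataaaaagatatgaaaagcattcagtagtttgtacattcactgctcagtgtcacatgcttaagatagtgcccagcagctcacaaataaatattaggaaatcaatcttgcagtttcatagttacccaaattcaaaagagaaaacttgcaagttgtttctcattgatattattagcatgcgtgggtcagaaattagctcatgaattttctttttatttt

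The Map1a window held 2 GC boxes, starting 59 and 48 bases before the start, and no other searched motif. The Map1b window held 1 TATA box, 48 bases before the start, and the Map2 window held 0 matches. No match overlapped another. Over all 33469 promoter windows of this length, 30.5% held a GC box, 12.9% a TATA box, 1.59% the cAMP response element, 6.34% the AP-1 site, and 0.478% and 2.45% the Egr sites in the order given. GC content was 60.4% for Map1a, 63.6% for Map1b and 32% for Map2, against a median of 51.2% over all windows. These matches describe the letters only.

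Mapt encodes tau, the axonal MAP, and was well measured by 3 probe sets above background on all 8 arrays. X79321_at read 1227, 1305, 1251 and 1403 on +PA arrays, against 1505, 1509, 1343 and 1471 on -PA arrays. The groups overlapped through +PA replicate 4 and -PA replicate 3. The log2 difference was -0.17 ± 0.09, with an interval of -0.37 to 0.03 (limma adjusted p = 0.384). For rc_AI227608_s_at it was -0.18 ± 0.11 (interval -0.41 to 0.06, adjusted p = 0.446), with signals of 834 to 1045 in +PA and 1005 to 1179 in -PA samples. For rc_AA957930_s_at it was 0.02 ± 0.16 (interval -0.34 to 0.37, adjusted p = 0.976), with signals of 1772 to 2795 in +PA and 2008 to 2897 in -PA samples. All 3 intervals include 0, and the highest upper bound is 0.37. Between the 3 pairs of Mapt probe sets the log2 differences were 0.19, 0.19 and -0.0076 apart, with exact two-sided permutation p of 0.257, 0.257 and 0.914. With 4 arrays against 4 and adjustment over 5 pairs, 1 differing pair could not get under an adjusted p of 0.143, so these values do not show that the probe sets respond alike.

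**Figure D2:**
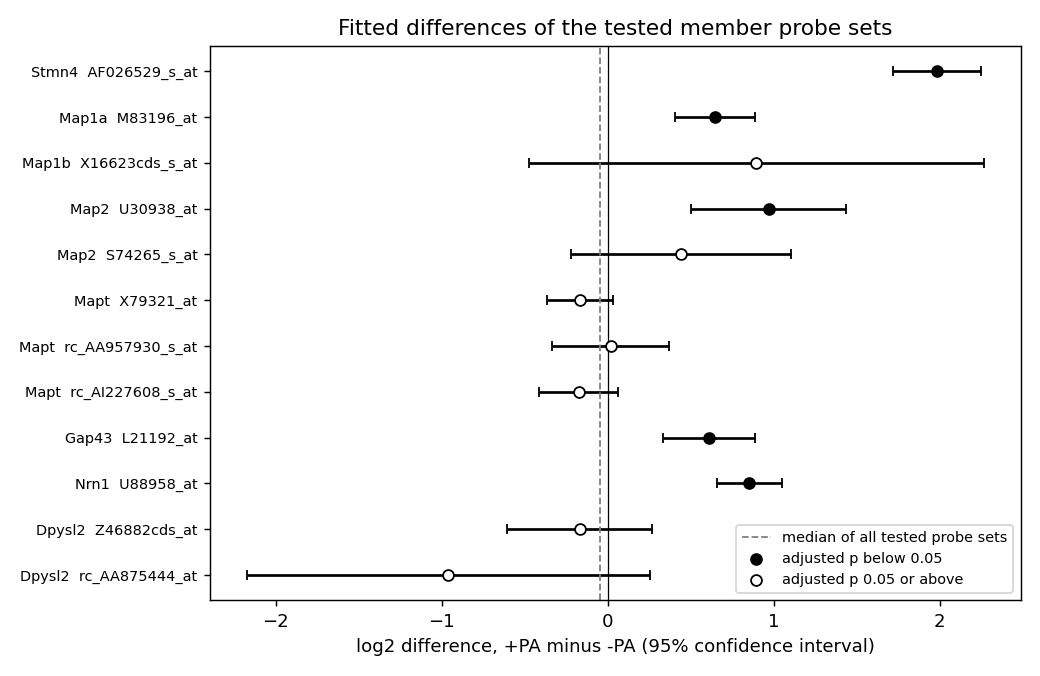
Fitted log2 difference, +PA minus -PA, of the 12 tested probe sets (points) with 95% confidence intervals (bars); filled points have an adjusted p below 0.05 and the dashed line is the median of all 6129 tested probe sets (-0.048). The filled points run from 0.61 (Gap43) to 1.98 (Stmn4), and the intervals of all other probe sets include 0.

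Both membrane proteins of the growth cone and neurite rose. Nrn1, measured by U88958_at, read 5129, 5021, 4656 and 4429 on +PA arrays, against 2579, 2584, 2491 and 2987 on -PA arrays. The groups were widely separated relative to their spread. The means were 4808.5 ± 324 in +PA and 2660.4 ± 222 in -PA samples (SD, n = 4 each). The log2 difference was 0.85 ± 0.09, a fold of 1.81 with an interval of 1.58 to 2.07 (limma adjusted p = 1.0e-04, the 43rd lowest p of all). It passed in all 16 alternative settings, at 0.82 to 0.91.

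Gap43 is a classic marker of axon growth and a substrate of protein kinase C. L21192_at read 1466, 1414, 1136 and 1081 on +PA arrays, against 866, 798, 729 and 917 on -PA arrays. The groups did not overlap, with +PA replicate 4 and -PA replicate 4 nearest to each other. The fitted log2 difference was 0.61 ± 0.13, a fold of 1.53 with an interval of 1.26 to 1.85 (limma adjusted p = 0.0118). The call held without each single array (highest adjusted p 0.0439). It ended with median centring (0.65, adjusted p = 0.0953), with no intensity trend (0.61, adjusted p = 0.0548) and without both replicates numbered 2 (0.54, adjusted p = 0.117).

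Dpysl2 had 2 probe sets, and neither was called. Z46882cds_at read 617, 678, 594 and 518 on +PA arrays, against 1007, 597, 729 and 468 on -PA arrays, so the -PA samples covered the whole +PA range. Its log2 difference was -0.17 ± 0.20 with an interval of -0.61 to 0.27 (limma adjusted p = 0.756). The other probe set, rc_AA875444_at, was below background on all 8 arrays, at 6.3 to 86.3 in +PA and 46.6 to 118.6 in -PA samples. Its log2 difference of -0.96 ± 0.56 was not called (adjusted p = 0.415). It rested in part on +PA replicate 1 (6.3), without which it was -0.42 (adjusted p = 0.708).

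**Figure D3:**
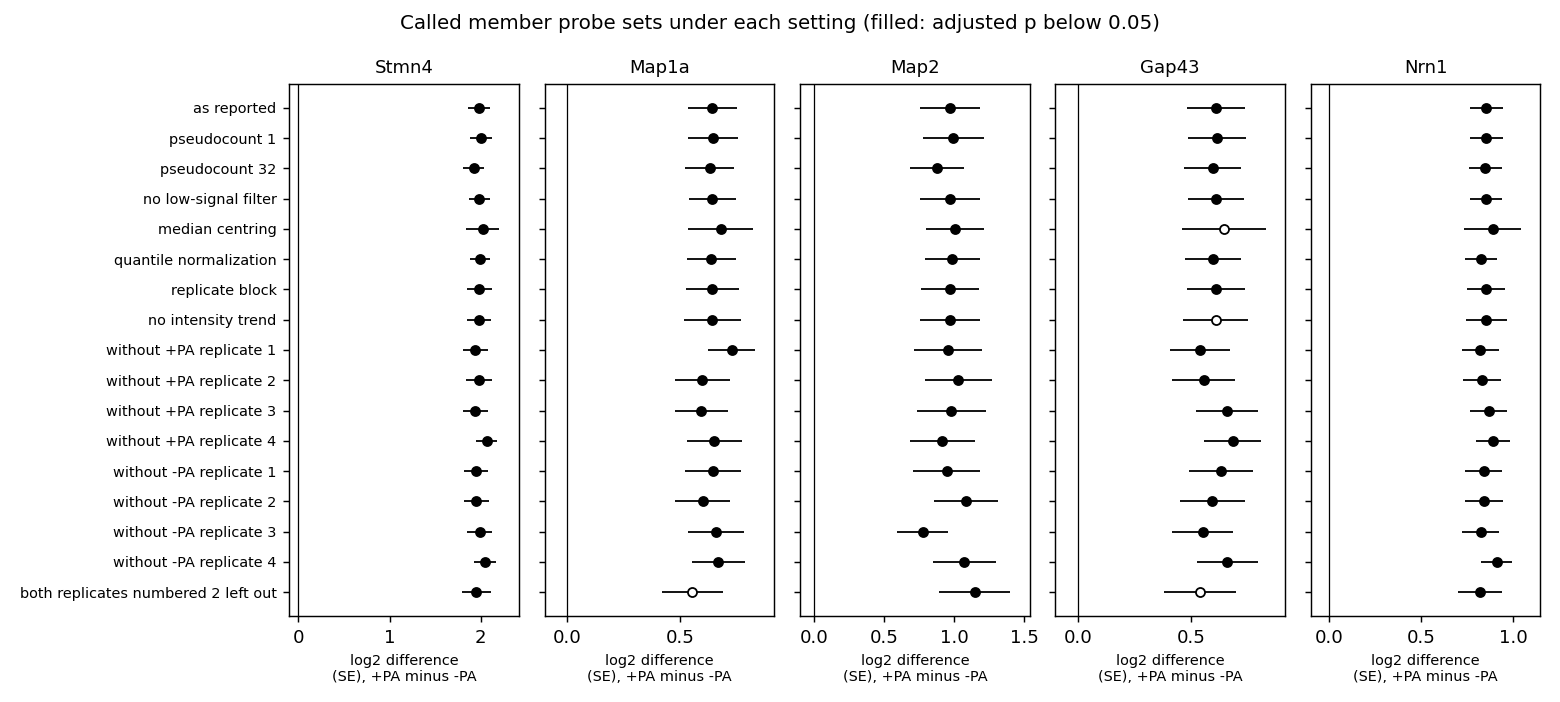
Log2 difference, +PA minus -PA (points), with its SE (bars) for the 5 called probe sets (panels, each with its own horizontal scale) under each setting (rows); filled points have an adjusted p below 0.05. Stmn4, Map2 and Nrn1 are filled in every row. Map1a is open in 1 row and Gap43 in 3.

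Other genes of the microtubule and neurite machinery were taken from a list of 111, each represented by its probe set of highest mean signal. Of these, 61 had a probe set, 12 were below the filter and 49 were tested. Among the 49, 3 rose, 1 fell and 45 were not called, which is 8.16% called against 7.06% of all probe sets. The number that fell rested on single arrays: it was 3 without +PA replicate 4, 2 without +PA replicate 3 and 0 without -PA replicate 2, with 3 rising each time. Their median log2 difference was 0.041, against -0.048 over all probe sets, and it turned negative without +PA replicate 3 (-0.0075), +PA replicate 4 (-0.026), -PA replicate 2 (-0.0064) or -PA replicate 3 (-0.044).

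Of 7 proteins that bind, sever or position microtubules, 0 rose and 1, Stmn1, fell (median -0.06). The next lowest p was that of Map1lc3a, a light chain of the MAP1 proteins and autophagy factor, at 0.15 ± 0.09 (limma adjusted p = 0.443). None of 9 motor subunits was called (median 0.09). The lowest p values were those of the mitotic kinesin Kif2c (-1.38 ± 0.52, adjusted p = 0.170), with overlapping signals of 24.0 to 162 in +PA and 153 to 226 in -PA samples, and of the kinesin light chain Klc1 (0.32 ± 0.13, adjusted p = 0.218).

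Of 19 kinases and small GTPases acting on the neurite cytoskeleton, 2 rose and 0 fell (median 0.07). Rhob, an early-response relative of RhoA, rose by 0.87 ± 0.13 (2385 ± 351 in +PA and 1302 ± 157 in -PA samples, SD, n = 4 each; limma adjusted p = 0.0011), and it passed in all 16 alternative settings. Camk2d, a calcium-dependent kinase subunit, rose by 0.52 ± 0.11 (adjusted p = 0.0116), a call that ended with median centring (0.0660), with no intensity trend (0.0558) and without both replicates numbered 2 (0.0569). Its other 3 tested probe sets were not called (0.11, 0.51 and -0.02). Of 14 growth cone, guidance and outgrowth proteins, 1 rose and 0 fell (median -0.09). The one that rose was Crmp1, a close relative of Dpysl2, by 0.48 ± 0.10 (2346 ± 170 in +PA and 1679 ± 184 in -PA samples, SD, n = 4 each; adjusted p = 0.0118). This call ended with median centring (0.133) and with no intensity trend (0.0660). The guidance ligand Slit1 differed by -0.47 ± 0.14 and was not called (adjusted p = 0.0700). In 2 further genes, named after their values were seen, another probe set was called while the representative was not. For Limk1, which phosphorylates cofilin, these were 0.70 (adjusted p = 0.0152) and 0.04 (adjusted p = 0.965). For Pafah1b1 (LIS1), a regulator of dynein, they were 0.53 (adjusted p = 0.0355) and -0.03 (adjusted p = 0.934).

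**Figure D4:**
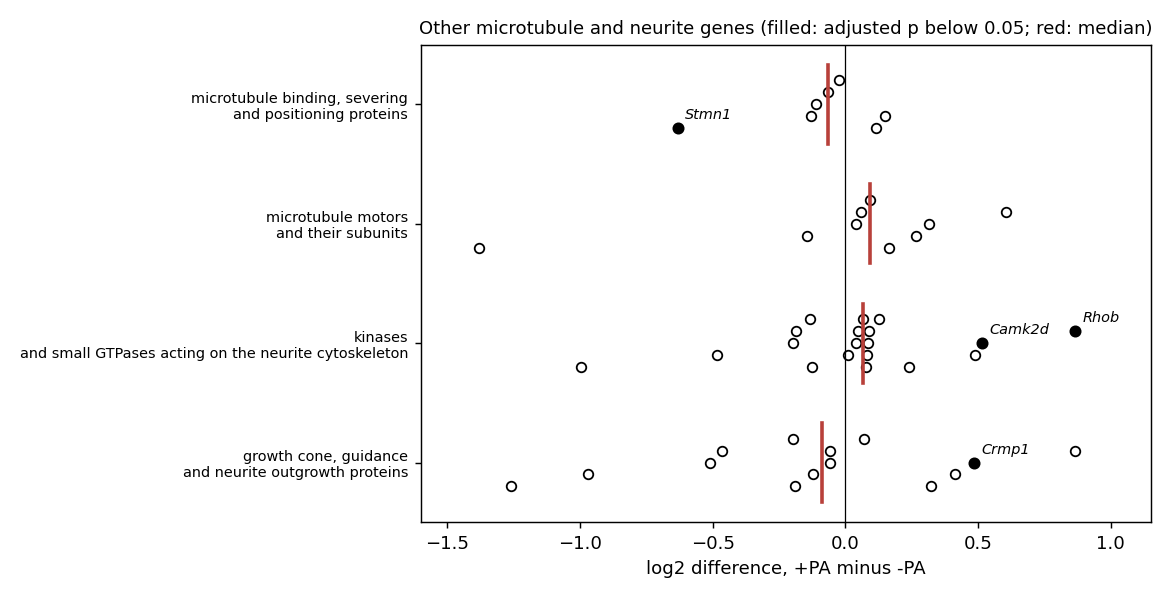
Log2 difference, +PA minus -PA (horizontal axis), of the 49 tested genes of 4 functional groups (rows; vertical scatter within a row has no meaning). Filled points have an adjusted p below 0.05 and red bars are group medians; Rhob, Camk2d and Crmp1 lie to the right of 0 and Stmn1 to the left.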

How the data were processed

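RNA of 8 samples was measured on 1 Affymetrix array each. The authors deposited linear intensities, all above 0, with a single scaled value for each probe set. Equal trimmed means (2% from each end) show a common scaling, whose program is not given in the sources used here. Gene names came from an annotation table of the array: 7018 of 8799 probe sets had 1 symbol, 308 several and 1473 none. Member symbols matched RefSeq by gene identifier. A constant of 7 (about the 10th percentile) was added to each signal before taking log2. The 59 control probe sets and 2611 others with a mean under the 30th percentile (36.0) were left out. For the other 6129, linear models came from limma 3.58.1 under R 4.3.3 (eBayes with an intensity trend, Benjamini-Hochberg adjustment, threshold 0.05) and had 6 residual degrees of freedom; the code was tested on simulated data. Probe sets of 1 gene were compared through within-array log2 differences by exact permutation over the 70 splits of the arrays (smallest p 0.0286, or 0.143 for 1 pair after adjustment over 5), in Python 3.11.15. Signal levels of different probe sets were set against each other for the low-signal filter, for the background level and to choose the representative of each listed gene. They were added together for the summed marker signals. Members, lists and tests were chosen with earlier results of these data known. Named genes are all members, every called gene of the 111 and the 2 of lowest p in each of its groups; others are marked. The number of arrays limits the precision.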

Additional observations from a re-analysis of the deposited data

Results flagged for a closer look

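Within a group of 4, a sample was singled out when its distance to the nearest other sample exceeded Dixon's 95% critical value as a share of the group's range. Of 36 such groups (18 probe sets in 2 conditions) 2 held such a sample, where chance gives about 1 in 20. Both belong to Map2 probe sets that were below the filter and not tested. On +PA replicate 4, rc_AI228850_s_at read 103.1, with the next +PA value at 19.3. On +PA replicate 2, X17682_s_at read 44, with the next +PA value at 13.2. Both values were under that array's background level.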

How the results depend on the processing

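The 16 alternatives changed the added constant, the filter, the scaling between arrays, the variance prior or the arrays used. Of the member probe sets, 5 were called in 13 of them, including the fit with the replicate number as a block; 4 were called with median centring and with no intensity trend, and 3 without both replicates numbered 2 (source label worded differently). Stmn4, Nrn1 and Map2 (U30938_at) passed in all 16. The count over all probe sets was 433, and 230 with median centring (72.6% higher, against 58.0%), 279 with no intensity trend, 221 without both replicates numbered 2, and 367 with the replicate block. Of the other 49 genes, 4 were called, and 1, 1 and 2 in the same 3 settings; without single arrays the count ran from 3 to 6. Those settings use fewer samples, another spread or, with median centring, another centre of each array. Median centring moved the median log2 difference of all probe sets from -0.048 to -0.012. The cause of the changed counts was not tested. Same-numbered arrays deviated from their group means with correlations of -0.144, 0.058, -0.085 and 0.19. Other pairs of +PA and -PA arrays ran from -0.21 to 0.20, so the replicate numbers showed no clear pairing. Correlations were positive between +PA replicates 1 and 2 and -PA replicates 2 and 3. They were also positive between +PA replicates 3 and 4 and -PA replicates 1 and 4, and negative elsewhere. Whether arrays with different numbers share a batch was not tested. Uncalled differences changed sign for Mapt rc_AA957930_s_at (-0.020 with quantile normalization, and -0.073 to 0.15 without single arrays), for Dpysl2 Z46882cds_at (-0.34 to 0.024 without single arrays), and for the gap between Mapt rc_AI227608_s_at and X79321_at (-0.042 to 0.035 without single arrays). No pair of probe sets passed after adjustment in any setting, which a single differing pair could not do with 8 or 7 arrays (lowest adjusted p 0.143) and no pair could with both replicates numbered 2 left out. Signals near background limit Map1b, Map2 S74265_s_at and Dpysl2 rc_AA875444_at.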

Other observations

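Among the 4 +PA arrays, replicate 4 had the lowest Stmn4, Nrn1 and Gap43 signals (1364.5, 4429 and 1081) and the highest Map2 U30938_at signal (402). Among the 4 -PA arrays, replicate 4 had the highest Stmn4, Nrn1, Gap43 and Map1a signals (460.5, 2987, 917 and 1239.8). Each of these arrays had the highest median signal of its group (134.9 in +PA and 127 in -PA samples). Without +PA replicate 4 the log2 differences were 2.07 for Stmn4, 0.89 for Nrn1 and 0.69 for Gap43, and without -PA replicate 4 they were 2.04, 0.91 and 0.66; all were called.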
